A study of Mus musculus with 20 samples.

Results

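Interleukins are the secreted proteins by which immune cells signal to each other, and their receptors set which cells respond. The 83 genes described here were every protein-coding gene whose symbol begins with Il and a digit, of 56748 genes in each of the gene count tables. By known role they were 38 ligands, 41 receptor chains, 3 secreted inhibitors (Il1rn, Il18bp and Il36rn) and 1 enzyme, Il4i1, an amino acid oxidase that carries an interleukin name but is no cytokine.

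Poly A RNA sequencing was done in 2 experiments on mouse macrophages with 20 libraries in all. In the first, 12 libraries came from wildtype or iNOS knockout (iNOS KO) cells, unstimulated or stimulated for 48 h with 50 ng/mL lipopolysaccharide (LPS, a bacterial cell wall component) and 30 ng/mL interferon-γ (IFNγ), with 3 libraries in each of the 4 groups. iNOS, encoded by Nos2, is the inducible enzyme with which activated macrophages make nitric oxide. In the second, 8 libraries came from RAW264.7 cells, an immortalised mouse macrophage-like line, either wildtype or Akr1a1 knockout (Akr1a1 KO), unstimulated or stimulated for 48 h at the same LPS dose with IFNγ at 10 ng/mL, with 2 libraries in each of the 4 groups. AKR1A1 is an aldo-keto reductase that the study examined as a regulator of nitric oxide effects.

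The labels name the cells of the iNOS experiment as bone marrow-derived macrophages (BMDM) from C57BL/6J mice of 6 to 12 weeks, grown with the macrophage growth factor M-CSF. The methods of the study instead describe RAW264.7 cells for its iNOS KO sequencing, and the cell type was not settled here. The iNOS KO groups carry the deletion in the whole animal if they are BMDM, and bone marrow was pooled by genotype. For BMDM the study's methods name C57BL/6J mice for wildtype and a separate Nos2 mutant strain for iNOS KO, male and female. If the cells are BMDM, a strain difference and the loss of iNOS cannot be told apart. The Akr1a1 KO cells are clones grown from single edited cells, so a difference between clones and an effect of the gene cannot be told apart with 2 libraries per group. The labels do not say whether libraries of a group came from separate cultures, while the study's methods call them biological replicates in the iNOS experiment and independent clones in the Akr1a1 experiment. The p-values measure the spread between these libraries.

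Macrophages both send and receive interleukin signals. IL-1α and IL-1β, the classic alarm cytokines of innate immunity, act through a receptor shared with the decoy ligand IL-1 receptor antagonist (Il1rn), which binds without signalling. IL-18 and IL-33 use related receptors, while the IL-6, IL-27 and IL-12 family ligands and the ligands that use the common γ chain (Il2rg) signal through paired chains that activate Janus kinases and STAT proteins. IL-10 restrains macrophage activation through Il10ra and Il10rb.

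The promoters of 3 ligands are shown because these genes had the largest rises in the iNOS experiment among the 12 ligands called higher after wildtype stimulation in both experiments, leaving out Il36g, which has no entry in the RefSeq promoter table. Each runs from 250 bases before to 50 after the RefSeq start on GRCm38.p6, 5′ to 3′ on the gene's own strand: Il1b at chr2:129371090-129371389 (minus strand), Il6 at chr5:30012864-30013163 (plus strand) and Il1a at chr2:129309923-129310222 (minus strand). Capitals mark matches, on either strand, to the motifs searched. These were the NF-κB consensus, TGANTCA (AP-1), TTGCNNAA (C/EBP), TTCNNNGAA (STAT, GAS), GAAANNGAA (the core of the interferon response element) and TATAAA.

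Il1b: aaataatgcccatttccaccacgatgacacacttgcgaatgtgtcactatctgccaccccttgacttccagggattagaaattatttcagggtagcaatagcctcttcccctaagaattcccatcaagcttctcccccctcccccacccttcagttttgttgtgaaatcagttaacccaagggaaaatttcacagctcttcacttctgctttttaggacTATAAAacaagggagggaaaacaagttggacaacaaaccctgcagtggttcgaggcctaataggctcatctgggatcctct

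Il6: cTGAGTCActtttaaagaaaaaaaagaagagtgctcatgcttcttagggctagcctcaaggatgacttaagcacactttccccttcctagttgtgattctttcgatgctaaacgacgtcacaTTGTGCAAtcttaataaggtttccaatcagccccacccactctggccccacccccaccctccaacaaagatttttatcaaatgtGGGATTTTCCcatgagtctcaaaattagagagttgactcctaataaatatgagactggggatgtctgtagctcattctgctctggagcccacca

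Il1a: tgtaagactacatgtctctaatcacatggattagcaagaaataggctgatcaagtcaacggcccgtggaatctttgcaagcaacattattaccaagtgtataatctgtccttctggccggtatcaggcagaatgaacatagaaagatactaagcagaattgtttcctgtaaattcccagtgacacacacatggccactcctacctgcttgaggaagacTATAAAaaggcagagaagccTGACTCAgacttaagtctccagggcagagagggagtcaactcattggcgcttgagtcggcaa

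The Il1b window held 1 match, TATAAA at bases 220 to 225. In the Il6 window the NF-κB consensus matched at bases 207 to 216, TGANTCA at bases 2 to 8 and, on the opposite strand, TTGCNNAA at bases 123 to 130. Il1a had TATAAA at bases 219 to 224 and TGANTCA at bases 239 to 245, and no matches overlapped. Of 32851 promoters of the same length, 5.8% held the NF-κB consensus, 7.81% TGANTCA, 10.8% TTGCNNAA, 8.3% TTCNNNGAA, 8.56% GAAANNGAA and 13.6% TATAAA. A match is a description of the letters and was not tested as a binding site. The table had an entry for 62 of the 83 genes.

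Total counts per library ran from 15072109 to 18878107 in the iNOS experiment and from 11876719 to 44583327 in the RAW264.7 experiment, so that 1 CPM (1 count per 1000000 of a library's size, scaled by TMM) stood for 13.9 to 20.8 and for 12.7 to 46.5 counts. Nos2 was at 10370 to 11530 CPM in stimulated wildtype libraries, at 870.5 to 911.8 in stimulated iNOS KO libraries and at 0 counts in the unstimulated iNOS KO libraries. Akr1a1 was at 427 to 675 CPM in wildtype and 21.9 to 370.4 CPM in Akr1a1 KO RAW264.7 libraries, and this difference was not called. Of 8 macrophage markers 7 or 8 were above 1 CPM in each group, T and NK cell, B cell and mast cell markers were below 1 CPM in each group, and the neutrophil list was above 1 CPM only through 1 of its 7 genes, S100a8, after stimulation. Of 4 dendritic cell markers 0 to 2 were above 1 CPM in each group, led by Zbtb46 and Xcr1, and of 6 fibroblast markers 0 to 2, after stimulation alone. Between replicates the chi-square per gene was 2.65 to 7.74 in the iNOS experiment, except 28.8 and 36.8 for the pairs holding replicate B of stimulated iNOS KO, which therefore stood apart, and 15.5 to 68.6 in the RAW264.7 experiment. Finally, 2 RAW264.7 libraries, unstimulated replicate B of each genotype, have titles that call them stimulated against their treatment field and library name, which were followed. In these 2 libraries Nos2 was at 30.7 (wildtype) and 38.1 CPM (Akr1a1 KO) and Il6 at 0 counts. Nos2 was at 4155 to 8806 CPM in the stimulated RAW264.7 libraries, so these levels go with the unstimulated state. In bulk RNA, fewer cells of a type and less RNA per cell cannot be told apart.

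Stimulation widened the set of interleukin ligands above 1 CPM far more than the set of receptors above it. In the iNOS experiment 5 of 38 ligands had a group mean above 1 CPM in unstimulated wildtype cells and 13 did after stimulation, against 5 and 14 in iNOS KO cells. Among the 41 receptor chains 18 were above 1 CPM in unstimulated and 19 in stimulated wildtype cells, and 18 in both iNOS KO groups. RAW264.7 cells went from 3 to 12 ligands in wildtype and from 4 to 15 in Akr1a1 KO, while receptors went from 18 to 17 and from 17 to 16.

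Summed over the ligands, wildtype cells of the iNOS experiment held 24.4 CPM unstimulated and 1123 CPM stimulated, and iNOS KO cells 27.2 and 1039 CPM. Receptor sums were 589.6 and 1275 CPM in wildtype, and 578 and 1165 CPM in iNOS KO cells. The inhibitors held 203.5 CPM before and 4855 after stimulation in wildtype, against 152 and 3169.7 CPM in iNOS KO cells. On this scale, which favours long transcripts, Il1rn after stimulation made up 65.5% of all CPM of the 83 genes in wildtype and 58.0% in iNOS KO cells, and in RAW264.7 cells 71.7% in wildtype and 56.9% in Akr1a1 KO. The ligand sums in RAW264.7 cells were 35.6 and 613 CPM in wildtype and 35.3 and 660.5 CPM in Akr1a1 KO.

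Above 1 CPM in some group of both experiments were 14 ligands (Il1a, Il1b, Il6, Il7, Il10, Il15, Il16, Il18, Il23a, Il27, Il33, Il34, Il36a and Il36g), and Il12b was so in RAW264.7 cells only. The receptors above 1 CPM in both were 17: Il1rap, Il1rl1, Il2rg, Il4ra, Il6ra, Il6st, Il7r, Il10ra, Il10rb, Il11ra1, Il12rb1, Il13ra1, Il15ra, Il17ra, Il17rc, Il18rap and Il20rb. Il2rb and Il13ra2 passed 1 CPM only in the iNOS experiment and Il21r only in RAW264.7 cells. Both Il1rn and Il18bp were above 1 CPM in both. No group of either experiment had a mean above 1 CPM for the other 23 ligands, 21 receptors, Il36rn and Il4i1.

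**Figure D1:**
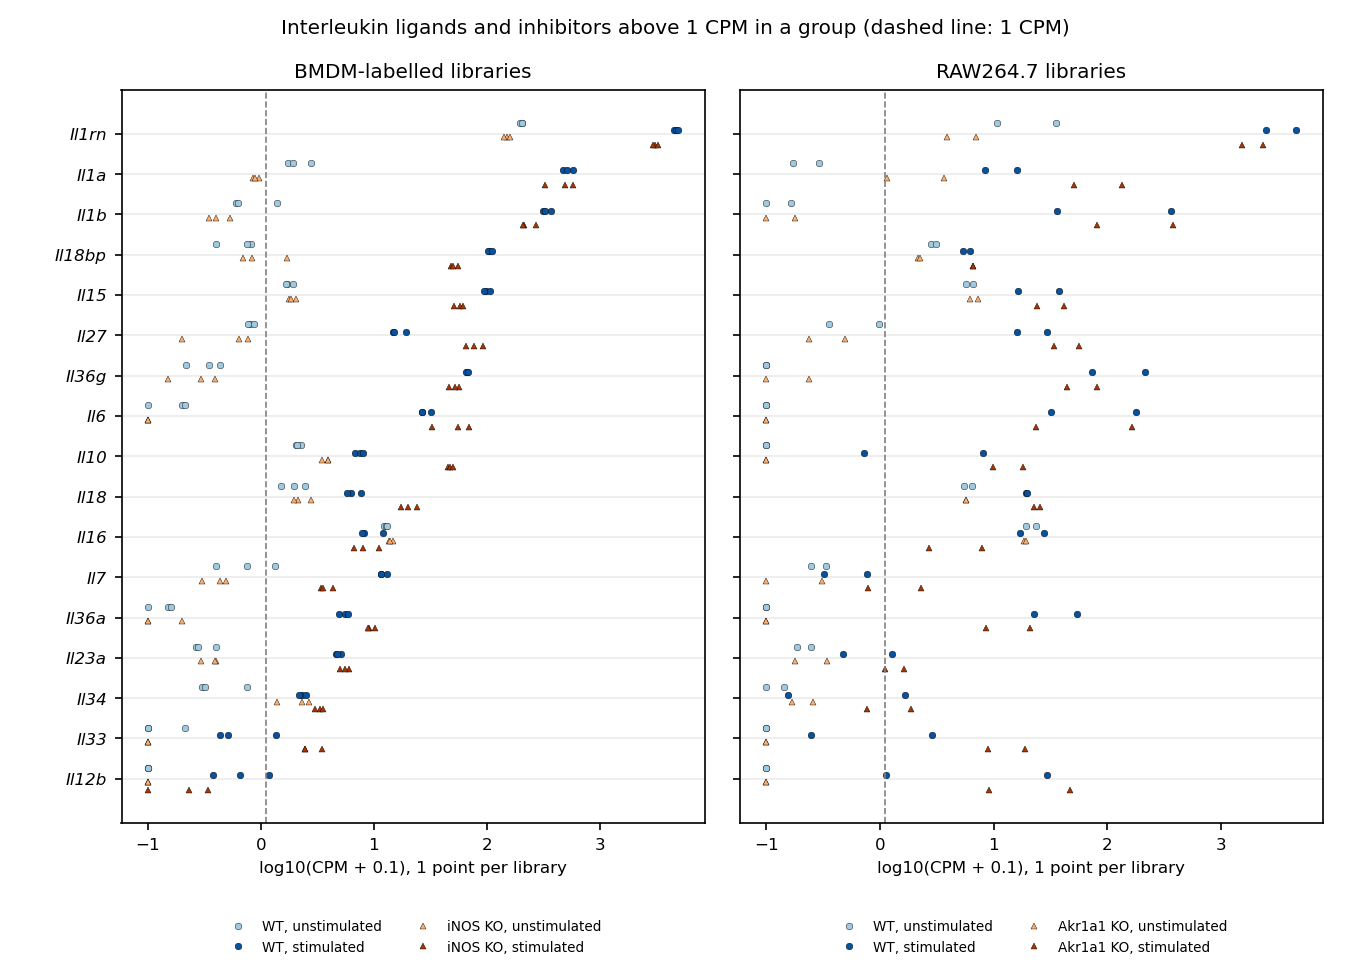
Levels of the interleukin ligands and inhibitors above 1 CPM in some group, with 1 point per library of both experiments, coloured by group, on the x axis as log10(CPM + 0.1), with the dashed line at 1 CPM. Stimulated points lie to the right of unstimulated ones for most ligands, while Il16 lies close to its unstimulated level in wildtype cells of both experiments. By edgeR the log2 fold changes in wildtype cells of the iNOS experiment were 8.71 for Il1b and 8.47 for Il6. The axis, with its offset of 0.1, does not show these directly.

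**Figure D2:**
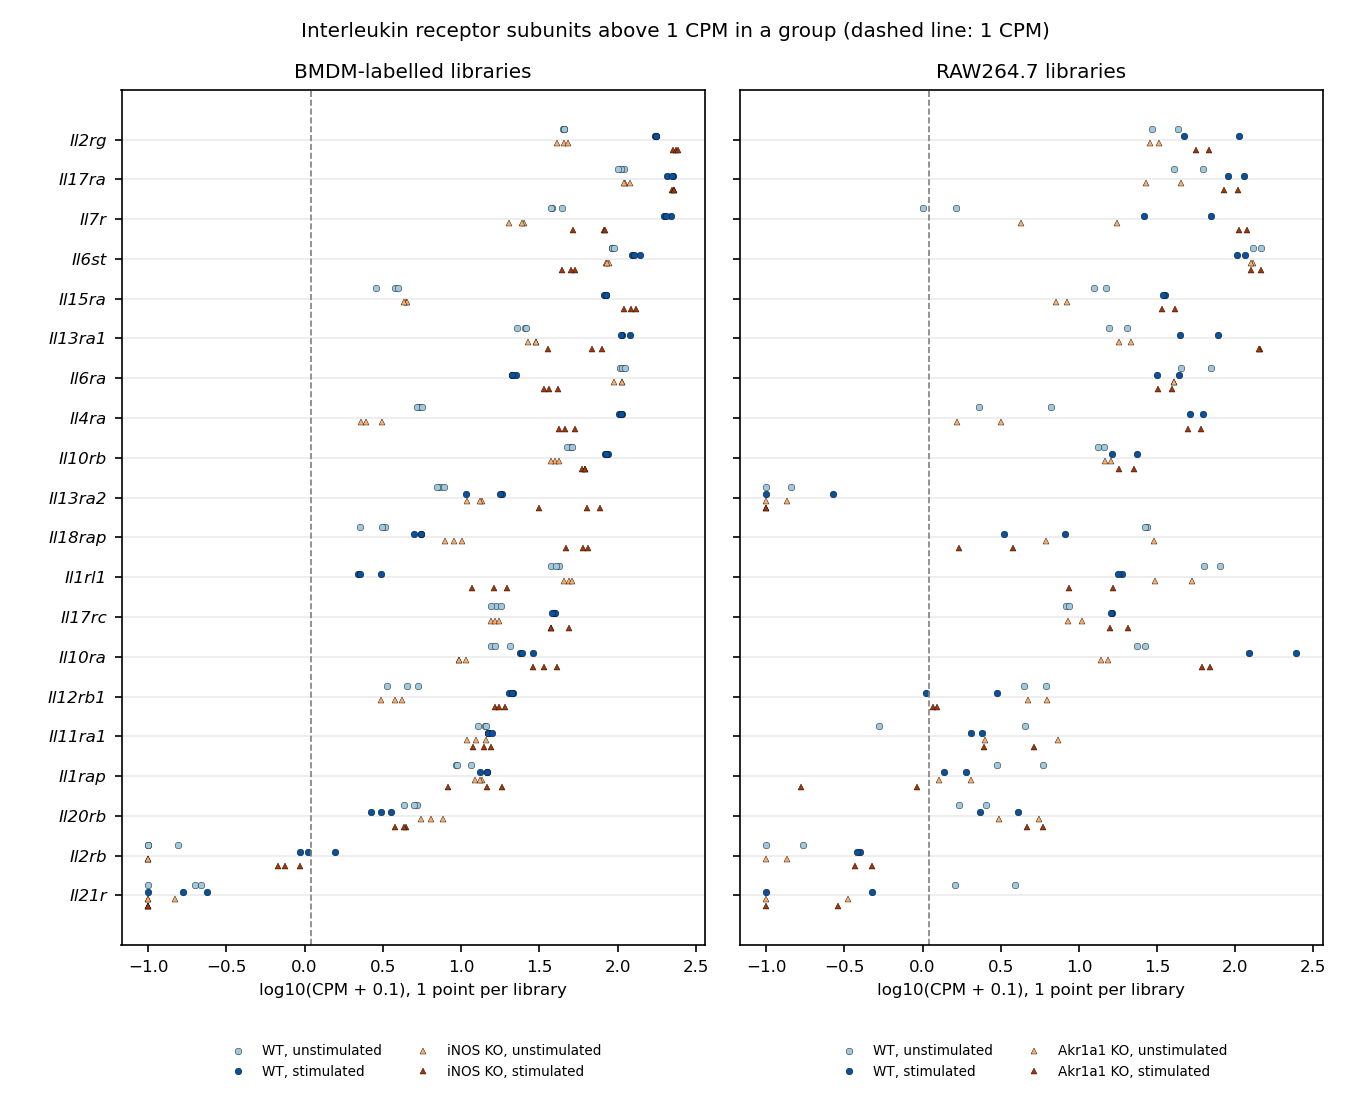
Levels of the interleukin receptor chains above 1 CPM in some group, with 1 point per library of both experiments, coloured by group, on the x axis as log10(CPM + 0.1), with the dashed line at 1 CPM. Most chains above 1 CPM after stimulation were already above it before, and Il1rl1 moves to the left in both genotypes of both experiments.

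Per length of the gene model (RPKM, the CPM divided by gene length in kilobases, the scale on which levels of different genes can be set side by side), unstimulated wildtype cells of the iNOS experiment were led by Il1rn at 36.7, the common γ chain Il2rg at 18.9, Il10rb at 13, Il6ra at 12.4 and Il17ra at 12.1 RPKM. After stimulation the order of mean levels was Il1rn at 858, Il1a at 266, Il1b at 177, Il2rg at 73.1, Il15 at 44.2, Il7r at 44.2, Il36g at 40.7 and Il18bp at 35.1 RPKM. Il15 and Il7r did not differ in this order beyond their spread. Thus 5 of the 8 leading transcripts after stimulation belonged to the IL-1 family or its inhibitors (Il1rn, Il1a, Il1b, Il36g and Il18bp).

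The first comparison asked which interleukin genes respond to LPS/IFNγ in wildtype cells of the iNOS experiment. Of the 83 genes, 50 had at least 10 counts in total and were tested, 20 ligands, 27 receptors, 2 inhibitors and Il4i1; that total can be reached through 1 group alone, so counts over them are a description. The test was the quasi-likelihood F test of edgeR, with p-values adjusted by the Benjamini-Hochberg method over all genes tested, and it gives every adjusted p below. At an adjusted p under 0.05, 33 rose and 6 fell. Over all 18691 genes tested, 32.4% were called higher and 28.5% lower. Ligands rose in 14 and fell in 2 of 20, receptors rose in 17 and fell in 4 of 27, and both inhibitors rose. The median log2 fold change was 4.0 for ligands (3.95 with genes at 0 counts set to their bound), 1.06 for receptors (0.94 so set) and 0.071 for all genes. The neutrophil list summed to 0.881 to 1.11 CPM in unstimulated libraries against 34.7 to 61.2 CPM in stimulated ones, nearly all of it S100a8, with Ly6g, Retnlg, Cxcr2 and S100a9 at 0 counts. The fibroblast list went from 0 to 0.167 CPM unstimulated to 3.65 to 4.92 CPM stimulated, mostly Dcn and Pdgfra. The part of either list in these results was not tested.

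Il1b, the secreted IL-1 released after caspase-1 cleavage (ENSMUSG00000027398, chromosome 2, 129206490 to 129213059 as the table lists it), was at 1.3, 0.50 and 0.528 CPM in the unstimulated and 317, 324 and 369 CPM in the stimulated wildtype libraries (log2 fold change 8.71, SE 0.20, adjusted p = 7.67e-16). Il1a, the IL-1 that is active without cleavage, went from 1.65, 2.67 and 1.82 to 585, 477 and 513 CPM (log2 fold change 8.01, SE 0.23, adjusted p = 9.2e-15). The groups were far apart for both genes, with no overlap. Il36g, an IL-1 family ligand of epithelia and macrophages, went from 0.249, 0.334 and 0.117 to 67.2, 65.7 and 68.3 CPM (log2 fold change 8.11, SE 0.20, adjusted p = 1.28e-15). Its relative Il36a reached 4.85, 5.47 and 5.75 CPM from 0.0498, 0 and 0.0587, a count ratio of 148 (95% interval 40.4 to 1230) (adjusted p = 1.39e-10). Il18, an IL-1 family ligand known for inducing interferon-γ, was at 1.4, 2.33 and 1.88 CPM before and 6.23, 5.74 and 7.56 CPM after stimulation (log2 fold change 1.8, SE 0.21, adjusted p = 8.69e-07). Every IL-1 family ligand named here was higher in each stimulated than in each unstimulated wildtype library.

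Il6, the acute-phase cytokine (ENSMUSG00000025746, chromosome 5, 30218112 to 30224979), was at 0.0997, 0.111 and 0 CPM unstimulated, which is 2, 2 and 0 counts, and at 31.9, 26.4 and 26.6 CPM stimulated (log2 fold change 8.47, SE 0.46, adjusted p = 3.25e-10). Il15, which sustains NK and memory T cells, went from 1.6, 1.56 and 1.82 to 98.7, 94.6 and 107 CPM (log2 fold change 5.91, SE 0.12, adjusted p = 9.78e-17), and Il15ra, the chain that presents it to neighbouring cells, from 3.69, 3.84 and 2.76 to 83.8, 81.9 and 84.4 CPM (log2 fold change 4.59, SE 0.11, adjusted p = 9.98e-16). Ligand and presenting chain thus rose together. Il27, a partner of Ebi3 in the IL-27 heterodimer, went from 0.698, 0.667 and 0.763 to 14.8, 15 and 19 CPM (log2 fold change 4.5, SE 0.26, adjusted p = 8.19e-11). Il7, the lymphocyte survival factor, went from 0.299, 1.22 and 0.646 to 12.9, 11.5 and 11.6 CPM (log2 fold change 4.06, SE 0.26, adjusted p = 4.07e-10). Il23a, the IL-23 subunit that pairs with IL-12 p40, stayed low, at 4.5, 5.0 and 4.64 CPM after stimulation against 0.299, 0.167 and 0.176 before (log2 fold change 4.39, SE 0.26, adjusted p = 1.3e-10). Il12b, which encodes p40, had a mean of 0.637 CPM, and Il12a, the other IL-12 chain, had 0 counts in every library of both experiments.

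Il10, the inhibitory cytokine, rose in wildtype cells from 1.94, 2.17 and 2.0 to 6.72, 7.43 and 7.83 CPM (log2 fold change 1.84, SE 0.13, adjusted p = 1.52e-09). Of the ligands above 1 CPM, Il16, a chemoattractant for CD4+ cells, was the only one that fell, from 12.3, 12.7 and 13 to 8.1, 11.9 and 7.76 CPM (log2 fold change -0.45, SE 0.17, adjusted p = 0.0306), a call lost under some alternatives. Il34, a second ligand of the M-CSF receptor, was at 0.199, 0.222 and 0.646 CPM before and 2.22, 2.43 and 2.08 CPM after stimulation (log2 fold change 2.67, SE 0.38, adjusted p = 1.01e-05). Il33, the nuclear alarmin, averaged 0.667 CPM after stimulation.

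Both secreted inhibitors above 1 CPM rose. Il1rn was at 206, 197 and 206 CPM unstimulated and at 4526, 4767 and 4953 CPM stimulated (log2 fold change 4.55, SE 0.067, adjusted p = 4.86e-18). Il18bp, which binds and neutralises IL-18, went from 0.299, 0.723 and 0.646 to 105, 101 and 112 CPM (log2 fold change 7.58, SE 0.21, adjusted p = 6.96e-15). In fold terms Il18bp rose 191-fold and Il1rn 23.4-fold.

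Of the 27 receptors tested 17 rose, 4 fell and 6 were not called. Il4ra, the chain common to IL-4 and IL-13 signalling, went from 5.28, 5.11 and 5.52 to 102, 106 and 104 CPM (log2 fold change 4.29, SE 0.11, adjusted p = 2.89e-15), and Il13ra1, its partner for IL-13, from 22.7, 25.6 and 25.9 to 119, 106 and 105 CPM (log2 fold change 2.16, SE 0.19, adjusted p = 3.52e-08). Il7r, the IL-7 receptor α chain, rose from 37.8, 43.9 and 37.5 to 220.0, 196 and 202 CPM (log2 fold change 2.38, SE 0.14, adjusted p = 1.66e-10), and the common γ chain Il2rg from 44.6, 45.1 and 45.4 to 175, 172 and 176 CPM (log2 fold change 1.95, SE 0.070, adjusted p = 1.91e-13). All libraries of these 4 genes were higher after stimulation. Il2rb, the β chain of the IL-2 and IL-15 receptors, reached 1.45, 0.945 and 0.832 CPM from 0, 0.0556 and 0, a count ratio of 59.3 (95% interval 10.1 to 2390) (adjusted p = 1.2e-05), and Il12rb1, shared by the IL-12 and IL-23 receptors, rose by 2.27 on the log2 scale.

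The receptor with the deepest loss was Il1rl1 (ST2), the IL-33 receptor, which was at 41.9, 37.5 and 40.3 CPM unstimulated and 2.08, 2.97 and 2.15 CPM stimulated (log2 fold change -4.05, SE 0.18, adjusted p = 2.47e-12). Il6ra, the IL-6 binding chain, went from 104, 107 and 110.4 to 21.1, 22.3 and 20.9 CPM (log2 fold change -2.32, SE 0.087, adjusted p = 3.3e-13), whereas Il6st (gp130), the signalling chain that IL-6 shares with IL-27 and others, went from 92.3, 91.8 and 94.1 to 124, 139 and 126 CPM (log2 fold change 0.48, SE 0.073, adjusted p = 2.03e-05). The IL-6 binding chain thus fell while its signalling chain rose slightly. Il20rb, a chain of the IL-20 and IL-24 receptors, fell by 0.66 on the log2 scale (adjusted p = 0.00337).

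Smaller receptor rises completed the pattern. Il17ra, the common IL-17 receptor chain, rose by 1.06 and Il17rc, its partner, by 1.23 on the log2 scale (adjusted p = 1.86e-10 and 2.74e-08). Il10rb rose from 50.2, 47.4 and 50.7 to 86.1, 82.7 and 84.4 CPM (log2 fold change 0.77, SE 0.067, adjusted p = 2.41e-08) and Il10ra from 15.4, 16.4 and 20.3 to 23.5, 28.7 and 24.5 CPM (log2 fold change 0.56, SE 0.13, adjusted p = 0.00153). Il18rap, the accessory chain of the IL-18 receptor, rose from 3.14, 3.0 and 2.17 to 5.47, 5.4 and 4.92 CPM (log2 fold change 0.92, SE 0.19, adjusted p = 0.000407). Its partner Il18r1 had 9 counts in all 12 libraries together and was not tested. Il1rap, the accessory chain of the IL-1 and IL-33 receptors, was at 9.22, 11.4 and 9.33 CPM before and 14.5, 13.1 and 14.6 CPM after stimulation (log2 fold change 0.49, SE 0.20, adjusted p = 0.0381), and Il1r1, the signalling IL-1 receptor, did not pass a mean of 0.321 CPM in any group of this experiment. Il11ra1, the IL-11 receptor, was at 14, 12.8 and 14.3 CPM before and 14.7, 14.7 and 15.7 CPM after stimulation (adjusted p = 0.372).

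In iNOS KO cells the same stimulation gave 29 higher and 5 lower of the 50 tested, where 27.3% of all genes tested were higher and 24.6% lower. Ligands rose in 14 and fell in 1, receptors rose in 13 and fell in 4, and both inhibitors rose. Without the deviating replicate B the count was 36 in place of 34. Il6 was at 0 counts in all 3 unstimulated iNOS KO libraries and at 55.4, 32.7 and 69.4 CPM after stimulation, at least 358-fold higher against a floor of 3 counts per library. Il33 likewise had 0 counts unstimulated and reached 2.38, 2.38 and 3.34 CPM, at least 18.4-fold higher. Il1b went from 0.433, 0.299 and 0.244 to 212, 208 and 273 CPM (log2 fold change 9.44, SE 0.22, adjusted p = 1.25e-15) and Il1a from 0.867, 0.747 and 0.781 to 495, 324 and 584 CPM (log2 fold change 9.18, SE 0.25, adjusted p = 9.12e-15). All of these ligands were also called higher in wildtype cells. Among receptors Il15ra rose from 4.33, 4.43 and 4.2 to 121, 109 and 129.7 CPM (log2 fold change 4.79, SE 0.10, adjusted p = 5.13e-16) and Il4ra from 2.36, 3.04 and 2.2 to 46.2, 53.4 and 42.1 CPM (log2 fold change 4.22, SE 0.12, adjusted p = 1.77e-14).

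The receptor that went opposite ways in the genotypes was Il6st. It fell in iNOS KO cells from 84.3, 87.8 and 85.9 to 53, 44.2 and 50.3 CPM (log2 fold change -0.80, SE 0.075, adjusted p = 1.05e-07), where wildtype cells had risen. Il1rl1 fell in both genotypes but in iNOS KO cells from 48.7, 45.2 and 50.8 to 16.1, 11.6 and 19.4 CPM only (log2 fold change -1.61, SE 0.14, adjusted p = 2.95e-08). Il6ra also fell in iNOS KO cells (log2 fold change -1.47, SE 0.083, adjusted p = 1.47e-10).

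Before stimulation, when wildtype cells held almost no Nos2 RNA, 9 interleukin genes differed between iNOS KO and wildtype. Of the 50 tested 3 were higher and 6 lower, beside 1.88% higher and 4.09% lower among all genes. Higher in iNOS KO were Il18rap, at 8.91, 10.1 and 7.81 CPM against 3.14, 3.0 and 2.17 CPM in wildtype (log2 fold change 1.68, SE 0.17, adjusted p = 5.9e-06), Il10, at 3.37, 3.83 and 3.85 against 1.94, 2.17 and 2.0 CPM (log2 fold change 0.85, SE 0.14, adjusted p = 0.00073), and Il34, at 1.3, 2.59 and 2.2 against 0.199, 0.222 and 0.646 CPM (log2 fold change 2.52, SE 0.37, adjusted p = 0.00032). All of these were without overlap between the genotypes. Beside these differences the summed macrophage markers were at 8027 to 8356 CPM in wildtype and 5678 to 6034 CPM in iNOS KO, with Adgre1, Lyz2, Csf1r and Cd68 called lower, and their part in the result was not tested.

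Lower in unstimulated iNOS KO cells was Il4ra, at 2.36, 3.04 and 2.2 against 5.28, 5.11 and 5.52 CPM (log2 fold change -1.07, SE 0.14, adjusted p = 0.000117). Il7r was at 25, 20.2 and 24.3 against 37.8, 43.9 and 37.5 CPM (log2 fold change -0.78, SE 0.14, adjusted p = 0.00271) and Il10ra at 9.63, 9.61 and 10.7 against 15.4, 16.4 and 20.3 CPM (log2 fold change -0.80, SE 0.14, adjusted p = 0.0015). Il1rn, Il10rb and Il1a were the other genes called lower, with log2 fold changes of -0.43, -0.32 and -1.34. For Il1a the call was marginal (adjusted p = 0.0471) at levels near 1 CPM. With only the unstimulated groups in the fit the count of calls was 14, and without replicate B of stimulated iNOS KO it was 12, in place of 9. The larger share was then no longer lower, with 8 of the 14 and 6 of the 12 higher in iNOS KO. With a further limit of 1 on the log2 fold change it was 4.

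The central comparison was of stimulated iNOS KO with stimulated wildtype cells and asked which responses depend on iNOS. It split the interleukin genes evenly, with 13 higher and 12 lower of the 50 tested. Among all genes 24.2% were higher and 24.2% lower, so that the shares of the interleukin genes, 26% and 24%, were near this background. Ligands were higher in 6 and lower in 5 of 20, receptors higher in 7 and lower in 5 of 27, and both tested inhibitors were lower. The median log2 fold change was 0.12 for ligands and -0.035 for receptors, against -0.045 for all genes. Without replicate B the count was 26 in place of 25. Beside these differences the summed macrophage markers were at 8135 to 9005 CPM in wildtype and 12400 to 13010 CPM in iNOS KO, and the fibroblast list at 3.65 to 4.92 and 11.3 to 16.6 CPM, mostly Dcn, with Col3a1 at 0 counts. The macrophage markers did not move as one, since Lyz2 (0.98 on the log2 scale) and Cd14 (0.81) were called higher and Adgre1 (-0.62), Cd68 (-0.27) and Mertk (-2.69) lower. In the fibroblast list Pdgfra was called lower (-3.3). Their part in the result was not tested.

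**Figure D3:**
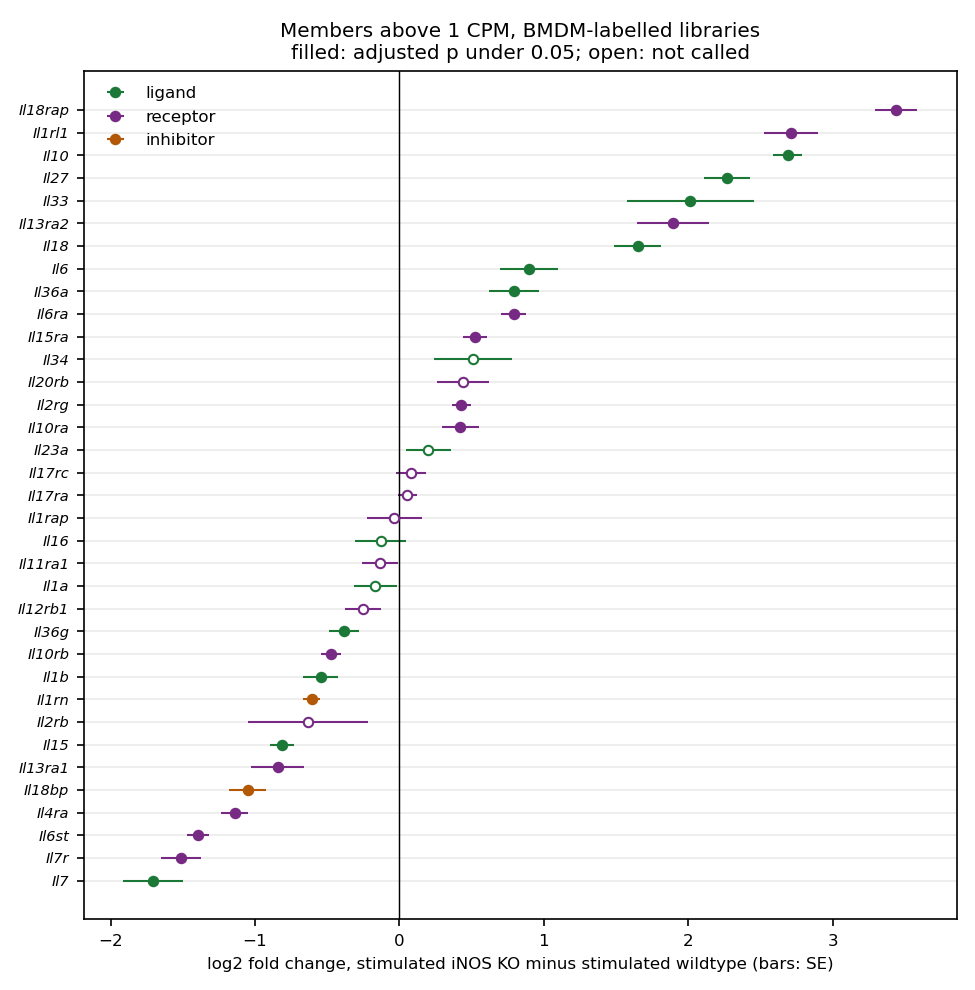
Log2 fold change of iNOS KO against wildtype after stimulation for the interleukin genes above 1 CPM, with bars of 1 SE and filled points where the adjusted p was under 0.05. The highest points are Il18rap at 3.44, Il1rl1 at 2.71 and Il10 at 2.69, and the lowest are Il7 at -1.7, Il7r at -1.51 and Il6st at -1.4.

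Il10 (ENSMUSG00000016529, chromosome 1, 130947582 to 130952711 as listed) was at 6.72, 7.43 and 7.83 CPM in stimulated wildtype and at 44.9, 46.7 and 50.1 CPM in stimulated iNOS KO libraries (log2 fold change 2.69, SE 0.10, adjusted p = 1.16e-12). Il27 (ENSMUSG00000044701, chromosome 7, 126188182 to 126194113) was at 14.8, 15 and 19 CPM in wildtype and 65.4, 76.9 and 92.9 CPM in iNOS KO (log2 fold change 2.27, SE 0.16, adjusted p = 3.34e-09). In both, the lowest iNOS KO library lay several-fold above the highest wildtype library. Il18 was at 6.23, 5.74 and 7.56 against 19.9, 17.3 and 23.9 CPM (log2 fold change 1.65, SE 0.16, adjusted p = 2.5e-07), Il36a at 4.85, 5.47 and 5.75 against 8.93, 8.8 and 10.1 CPM (log2 fold change 0.80, SE 0.17, adjusted p = 0.00109) and Il33 at 0.415, 0.338 and 1.25 against 2.38, 2.38 and 3.34 CPM (log2 fold change 2.02, SE 0.44, adjusted p = 0.00133). All 3 were higher in every iNOS KO library.

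Il6 was at 31.9, 26.4 and 26.6 CPM in wildtype and 55.4, 32.7 and 69.4 CPM in iNOS KO (log2 fold change 0.90, SE 0.20, adjusted p = 0.00178). The groups did not overlap, but replicate B, at 32.7 CPM, lay just above the wildtype maximum of 31.9, and without it the log2 fold change was 1.14. Il1a did not pass the test, at 585, 477 and 513 CPM in wildtype and 495, 324 and 584 CPM in iNOS KO (log2 fold change -0.17, SE 0.15, adjusted p = 0.387), and its groups overlapped.

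Ligands lower in stimulated iNOS KO cells included Il7, at 4.24, 3.32 and 3.46 against 12.9, 11.5 and 11.6 CPM in wildtype (log2 fold change -1.7, SE 0.21, adjusted p = 2.71e-06), Il15, at 57.5, 51.6 and 61.6 against 98.7, 94.6 and 107 CPM (log2 fold change -0.81, SE 0.081, adjusted p = 2.51e-07), and Il1b, at 212, 208 and 273 against 317, 324 and 369 CPM (log2 fold change -0.54, SE 0.12, adjusted p = 0.00116). Il36g was at 56.1, 46 and 51.7 against 67.2, 65.7 and 68.3 CPM (log2 fold change -0.39, SE 0.10, adjusted p = 0.00549). None of these overlapped. Within the IL-1 family, then, Il18, Il33 and Il36a were higher and Il1b and Il36g lower in iNOS KO cells. Il12b was also called lower, at a mean of 0.122 against 0.637 CPM (adjusted p = 0.0388), a call lost under some alternatives.

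Both inhibitors were lower in stimulated iNOS KO cells. Il1rn was at 3095, 2989.9 and 3270.3 against 4526, 4767 and 4953 CPM (log2 fold change -0.61, SE 0.058, adjusted p = 1.55e-07), and Il18bp at 48.5, 55.4 and 49.8 against 105, 101 and 112 CPM (log2 fold change -1.05, SE 0.13, adjusted p = 2.57e-06). On the linear scale Il18 was 3.13 times and its inhibitor Il18bp 0.483 times the wildtype level.

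**Figure D4:**
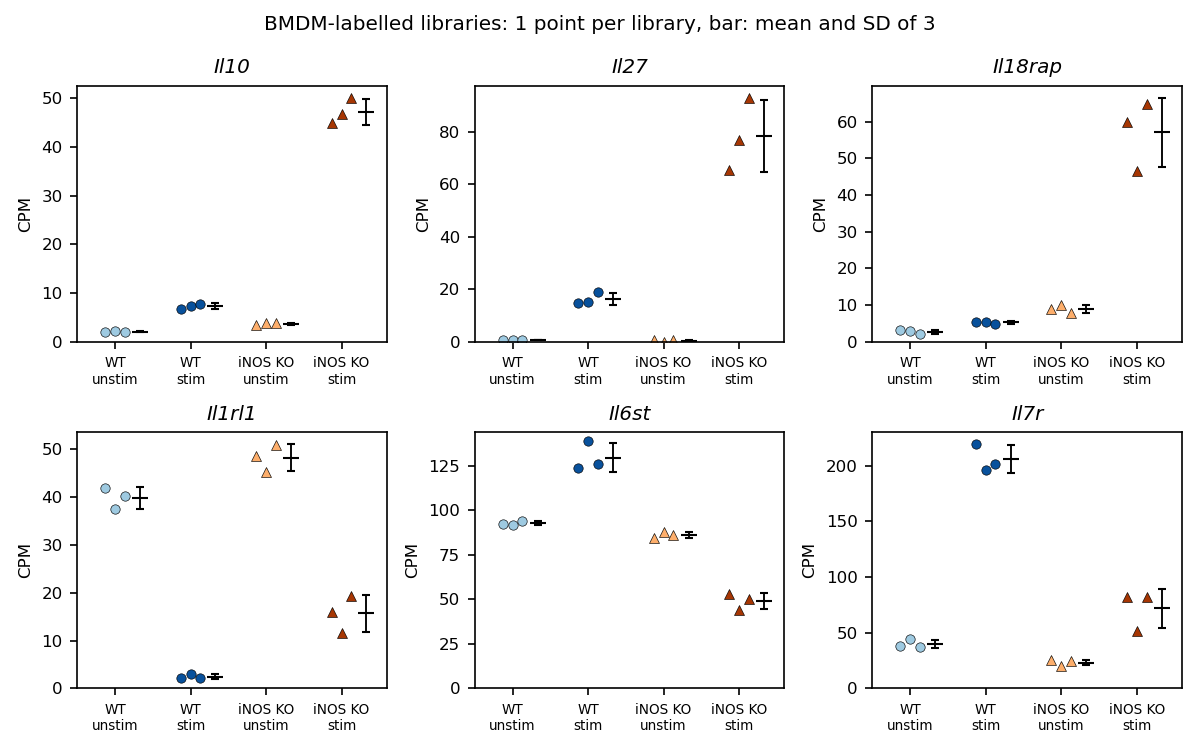
CPM of Il10, Il27, Il18rap, Il1rl1, Il6st and Il7r in each of the 12 libraries of the iNOS experiment, by group, with the mean ± SD of 3 libraries. Stimulated iNOS KO libraries lie above all stimulated wildtype libraries for Il10, Il27, Il18rap and Il1rl1 and below them for Il6st and Il7r.

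Among receptors the neighbouring genes Il1rl1 and Il18rap were the most raised. Il1rl1 (ENSMUSG00000026069, chromosome 1, 40468730 to 40504575 as listed) was at 2.08, 2.97 and 2.15 CPM in wildtype and 16.1, 11.6 and 19.4 CPM in iNOS KO (log2 fold change 2.71, SE 0.19, adjusted p = 2.75e-09). Il18rap (ENSMUSG00000026068, chromosome 1, 40554522 to 40590865) was at 5.47, 5.4 and 4.92 CPM in wildtype and 59.8, 46.6 and 64.8 CPM in iNOS KO (log2 fold change 3.44, SE 0.15, adjusted p = 7.63e-12), and Il18r1, which lies between them, stayed at a mean of at most 0.0627 CPM. Il13ra2, a decoy receptor for IL-13, was at 18.1, 10.7 and 17.7 CPM in wildtype and 63.4, 31.5 and 77.5 CPM in iNOS KO (log2 fold change 1.9, SE 0.25, adjusted p = 6.28e-06), with replicate B the lowest of its group. Il6ra was at 21.1, 22.3 and 20.9 CPM in wildtype and 41.7, 36 and 33.5 CPM in iNOS KO (log2 fold change 0.79, SE 0.088, adjusted p = 9.84e-07), with no overlap.

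Lesser rises were those of Il15ra (log2 fold change 0.52, SE 0.083, adjusted p = 4.85e-05), Il2rg (log2 fold change 0.43, SE 0.067, adjusted p = 4e-05) and Il10ra (log2 fold change 0.42, SE 0.13, adjusted p = 0.0124). For Il10ra the groups overlapped, at 23.5, 28.7 and 24.5 CPM in wildtype and 33.8, 40.7 and 28.6 CPM in iNOS KO libraries. Without replicate B its log2 fold change was 0.29 (adjusted p = 0.0328), and without stimulated wildtype replicate A it was not called.

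Il7r (ENSMUSG00000003882, chromosome 15, 9505874 to 9530262) was at 82.1, 51.7 and 82.2 CPM in stimulated iNOS KO against 220.0, 196 and 202 CPM in wildtype libraries (log2 fold change -1.51, SE 0.14, adjusted p = 8.49e-08), so that both Il7 and its receptor were lower. Il6st (ENSMUSG00000021756, chromosome 13, 112600604 to 112646620) was at 53, 44.2 and 50.3 against 124, 139 and 126 CPM (log2 fold change -1.4, SE 0.076, adjusted p = 1.35e-10). Its partner Il6ra moved the other way. Il4ra was at 46.2, 53.4 and 42.1 against 102, 106 and 104 CPM (log2 fold change -1.14, SE 0.092, adjusted p = 1.93e-08) and Il13ra1 at 68.7, 35.7 and 79.4 against 119, 106 and 105 CPM (log2 fold change -0.84, SE 0.18, adjusted p = 0.00104). Without replicate B the Il13ra1 value was -0.57. The fifth receptor called lower was Il10rb (log2 fold change -0.47, SE 0.067, adjusted p = 1.5e-05), so the 2 chains of the IL-10 receptor were called in opposite directions. The Il10ra groups overlapped, however, and its call was lost without stimulated wildtype replicate A. Before stimulation both chains were called lower in iNOS KO cells.

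Of the genes above 1 CPM in these groups, Il1a, Il16, Il23a, Il34, Il1rap, Il2rb, Il11ra1, Il12rb1, Il17ra, Il17rc and Il20rb did not pass the test. Il17ra had the narrowest estimate of these (log2 fold change 0.056, SE 0.063), and Il2rb a wide one (log2 fold change -0.63, SE 0.42).

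Whether the response to stimulation itself differed by genotype was tested as an interaction, the log2 response in iNOS KO minus that in wildtype. It was called above 0 for 10 and below 0 for 6 of the 50, beside 20% and 15.4% of all genes. Of the ligands called, the largest was Il27 at 2.95 (SE 0.50, adjusted p = 0.000159), followed by Il34 at -2.01 (SE 0.47, adjusted p = 0.00291), Il10 at 1.83 (SE 0.17, adjusted p = 3.16e-07) and Il18 at 1.42 (SE 0.29, adjusted p = 0.000903). Il6 and Il33, whose fitted size is no measure because unstimulated iNOS KO cells had 0 counts, did not pass (adjusted p = 0.183 and 0.131), but DESeq2 called both, and edgeR called Il6 without replicate B (adjusted p = 0.0195). Il27 rose 22.9-fold in wildtype and 179.5-fold in iNOS KO cells, and Il10 3.6-fold and 12.8-fold. Il34, as given above, was already higher in iNOS KO cells before stimulation. Among receptors Il1rl1 had 2.44 (SE 0.23, adjusted p = 2.82e-07), Il18rap 1.76 (SE 0.23, adjusted p = 1.24e-05), Il6st -1.29 (SE 0.10, adjusted p = 4.68e-08) and Il10ra 1.22 (SE 0.19, adjusted p = 7.28e-05). Il18bp had -1.88 (SE 0.39, adjusted p = 0.000978).

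For Il4ra, Il10rb and Il1rn, called lower in iNOS KO cells both before and after stimulation, the interaction was not called in the main fit. DESeq2, another filter and protein-coding genes alone called the interaction for Il1rn. In the main fit it was -0.074 (SE 0.18, adjusted p = 0.805) for Il4ra, -0.16 (SE 0.095, adjusted p = 0.225) for Il10rb and -0.18 (SE 0.082, adjusted p = 0.109) for Il1rn, which does not show that the genotype difference was the same in both states. For Il7, lower only after stimulation by the test, it was -0.52 (SE 0.54, adjusted p = 0.507), so a change with stimulation was not shown. Without replicate B of stimulated iNOS KO the count of calls was 18 in place of 16.

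The other genes of interleukin signalling, 30 genes without an interleukin symbol, were from a list chosen by known function. Of 28 tested in the iNOS experiment 24 rose and 2 fell in wildtype, 25 rose and 1 fell in iNOS KO, and in stimulated iNOS KO against wildtype 4 were higher and 14 lower. The shares of all genes were 32.4% higher and 28.5% lower, 27.3% and 24.6%, and 24.2% and 24.2%. All 10 tested kinases and STATs rose in wildtype cells, among them Stat2, which transduces type I interferon signals, by 4.36 on the log2 scale (adjusted p = 8e-16). In stimulated iNOS KO cells 5 of the 10 were lower, with Jak1, the kinase bound to gp130 and γ chain receptors, at 364 to 437 against 832 to 878 CPM (log2 fold change -1.07, adjusted p = 8.46e-10). None of these 10 was higher.

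Ebi3, the partner of Il27, rose on stimulation to 78.3 to 81.4 CPM in wildtype and 53 to 65 CPM in iNOS KO libraries (log2 fold change between them -0.48, adjusted p = 0.000258), opposite in direction to Il27. Csf2rb, the β chain shared by the IL-3, IL-5 and GM-CSF receptors, was at 212 to 244 against 598 to 669 CPM (log2 fold change -1.51). Csf2rb and its near-identical copy Csf2rb2 (-1.84) may share reads, so their split is uncertain. Sigirr, an inhibitory receptor of the IL-1 family, was higher in stimulated iNOS KO cells (1.85 to 2.09 against 0.139 to 0.277 CPM, log2 fold change 3.21, adjusted p = 6.07e-06). It was already called higher in unstimulated iNOS KO cells (0.781 to 1.64 against 0.249 to 0.528 CPM, log2 fold change 1.69, adjusted p = 0.00922). Its interaction was not called (adjusted p = 0.0674). Of the 4 genes of IL-1β and IL-18 processing all rose in both genotypes and 3 were lower in stimulated iNOS KO cells, among them Casp4, the sensor caspase of cytosolic LPS (log2 fold change -0.72, adjusted p = 0.000837). In RAW264.7 cells 27 of the 30 were tested, of which 19 rose and 3 fell in wildtype and 20 rose and 2 fell in Akr1a1 KO, with none called between genotypes by edgeR, beside 18.5% and 19.2% of all genes in wildtype and 19.8% and 19.4% in Akr1a1 KO.

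In wildtype RAW264.7 cells 24 interleukin genes rose and 4 fell on stimulation, again of 50 tested, beside 18.5% higher and 19.2% lower among 19569 genes. Ligands rose in 13 and fell in 1 of 19, receptors rose in 8 and fell in 3 of 27, and all 3 inhibitors rose. Median log2 fold changes were 4.89 for ligands (4.64 with genes at 0 counts set to their bound), 0.53 for receptors (0.38 so set) and -0.028 for all genes. Without the 2 libraries of conflicting title the count fell from 28 to 15, with 14 higher; that fit leaves 1 unstimulated library per genotype, which is assumed to vary like the others. Leaving out 1 library at a time gave 17 to 27, with 17 without unstimulated wildtype replicate B.

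Il6 had 0 counts in both unstimulated wildtype libraries and was at 31.9 and 179.6 CPM after stimulation, at least 1060-fold higher against 3 counts per library (adjusted p = 0.00492). Il36g, also at 0 counts before, was at 215 and 72.9 CPM, at least 1450-fold higher (adjusted p = 0.000104). Il1b had 0 and 0.0645 CPM unstimulated and 35.8 and 359.6 CPM stimulated, a count ratio of 4420 (95% interval 1510 to 21500) that covers counting error only (adjusted p = 0.00126). The stimulated replicates of Il6 and Il1b differed several-fold from each other, B being the higher, while for Il36g A was the higher.

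Il36a rose at least 386-fold to 54.3 and 22.6 CPM. Il12b rose at least 151-fold to 1.04 and 29.1 CPM, Il10 at least 43.5-fold to 8.03 and 0.619 CPM and Il33 at least 14.6-fold to 0.149 and 2.76 CPM. Each of these last 3 rests mainly on 1 of the 2 stimulated libraries, and none was called without the libraries of conflicting title (adjusted p = 0.121, 0.0862 and 0.142). Il27 went from 0.872 and 0.258 to 29.5 and 15.9 CPM (log2 fold change 5.63, SE 0.61, adjusted p = 0.000201) and Il1a from 0.0726 and 0.194 to 8.26 and 16 CPM (log2 fold change 6.18, SE 0.88, adjusted p = 0.000833). Both kept their call without those libraries.

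Il1rn was at 34.9 and 10.5 CPM before and 4599 and 2505 CPM after stimulation (log2 fold change 7.32, SE 0.70, adjusted p = 0.000105). Per length its stimulated mean was 642 RPKM, against 104 RPKM for Il1b and 6.14 RPKM for Il1a, the ligands it opposes. Il4ra rose from 2.18 and 6.49 to 51.2 and 61.8 CPM (log2 fold change 3.62, SE 0.45, adjusted p = 0.000423), Il7r from 1.53 and 0.903 to 69.8 and 25.9 CPM (log2 fold change 5.41, SE 0.79, adjusted p = 0.000941) and Il10ra from 26.2 and 23.4 to 122 and 246 CPM (log2 fold change 2.9, SE 0.30, adjusted p = 0.000148). Lower were Il1rl1, at 80.3 and 62.6 CPM before and 18.9 and 17.7 CPM after (log2 fold change -1.97, SE 0.34, adjusted p = 0.00232), Il18rap, at 27 and 26.2 CPM before and 8.03 and 3.21 CPM after stimulation (log2 fold change -2.26, SE 0.73, adjusted p = 0.04), and Il12rb1, at 4.36 and 6.04 CPM before and 2.9 and 0.957 CPM after stimulation (log2 fold change -1.46, SE 0.50, adjusted p = 0.0488). The groups did not overlap for these receptors. Without the libraries of conflicting title Il1rl1 kept its call, while Il18rap (adjusted p = 0.0522) and Il12rb1 lost theirs. With 1 library left out at a time Il18rap lost its call in 5 and Il12rb1 in 7 of 8 cases, and Il12rb1 also with the size factors of DESeq2 and with only the compared groups.

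Among other genes Il15 rose by 2.15, Il18 by 1.71, Il23a by 2.85, Il15ra by 1.36, Il13ra1 by 1.76, Il2rg by 1.09 and Il17ra by 0.99 on the log2 scale, Il23a from a level that stayed below 1 CPM on average in wildtype cells. Without the libraries of conflicting title Il15, Il17rc, Il18bp, Il23a and Il2rg were not called either, nor were Il4, Il11 and Il36rn, which were below 1 CPM. Il2rg also lost its call in most fits with 1 library left out, and with only the compared groups. Il21r, the IL-21 receptor, was at 3.78 and 1.5 CPM unstimulated and 0.372 and 0 CPM stimulated, which did not pass the test (log2 fold change -3.89, SE 1.35, adjusted p = 0.0519) but did under the replicate block. Il6ra, Il6st and Il16 did not pass either (adjusted p = 0.0758, 0.0766 and 0.93).

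Akr1a1 KO cells gave 23 higher and 4 lower of 50 on stimulation, with 19.8% and 19.4% of all genes. Il6 rose from 0 counts to 163 and 23.6 CPM, at least 645-fold, and Il12b from 0 counts to 46.6 and 9.04 CPM, at least 192-fold. Both Il10 and Il33 rose at least 95.7-fold from 0 counts, Il10 to 17.9 and 9.79 CPM and Il33 to 8.78 and 18.9 CPM. Il1b reached 379 and 81.6 CPM from 0.0785 and 0 CPM, a count ratio of 9350 (95% interval 1680 to 369000). These ligands were higher in each stimulated library. Il4ra went from 1.57 and 3.06 CPM to 49.8 and 60.1 CPM (log2 fold change 4.5, SE 0.49, adjusted p = 0.000183), Il7r from 17.4 and 4.17 CPM to 119 and 106 CPM (log2 fold change 3.43, SE 0.67, adjusted p = 0.00397) and Il13ra1 from 21.5 and 17.9 CPM to 144 and 142 CPM (log2 fold change 2.86, SE 0.27, adjusted p = 8.75e-05). Il16 fell in these cells, from 18.4 and 19 to 2.61 and 7.72 CPM (log2 fold change -1.85, SE 0.44, adjusted p = 0.0112). Without the libraries of conflicting title 18 calls were left of 27, and those lost included Il16 and Il12b (adjusted p = 0.0944 for Il12b).

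No interleukin gene was called by edgeR between Akr1a1 KO and wildtype RAW264.7 cells. Unstimulated, edgeR called 0 of 50 higher and 0 lower, beside 0.23% and 0.353% of all genes, with 8 at an unadjusted p under 0.05 and 3 called by DESeq2 (Il7r, Il1a and Il15ra). Stimulated, it called 0 in either direction, beside 0.0869% and 0.199% of all genes, with 8 at an unadjusted p under 0.05 and 4 called by DESeq2 (Il10ra, Il13ra1, Il1a and Il16). The interaction was called for 0 of 50, beside 0.00511% above and 0.0153% below 0 among all genes, with 4 at an unadjusted p under 0.05 and 0 by DESeq2. The shares of all genes are those of the adjusted edgeR calls. None is given for the unadjusted or DESeq2 counts, which are therefore a description. The common dispersion, a measure of the spread between libraries, was 0.0522 here and 0.00845 in the iNOS experiment.

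After stimulation Il1a was at 8.26 and 16 CPM in wildtype and 134 and 50.5 CPM in Akr1a1 KO (log2 fold change 2.92, SE 0.60, adjusted p = 0.135). Il16 was at 27.7 and 17.1 CPM in wildtype and 2.61 and 7.72 CPM in Akr1a1 KO (log2 fold change -2.1, SE 0.45, adjusted p = 0.15), Il10ra at 122 and 246 CPM in wildtype and 60.8 and 68.4 CPM in Akr1a1 KO (log2 fold change -1.51, SE 0.28, adjusted p = 0.11) and Il13ra1 at 44.2 and 77.3 CPM in wildtype and 144 and 142 CPM in Akr1a1 KO (log2 fold change 1.23, SE 0.25, adjusted p = 0.136). In these 4 genes the groups did not overlap, yet none passed the test of edgeR. With 2 libraries per group, 25 of the 50 interleukin genes tested had no overlap, so this alone does not mark these genes out. The share of all genes without overlap is not given, so this count is a description. Il6, at 31.9 and 179.6 against 163 and 23.6 CPM (log2 fold change -0.19, SE 1.0, adjusted p = 0.975), and Il1b, at 35.8 and 359.6 against 379 and 81.6 CPM (log2 fold change 0.22, SE 0.93, adjusted p = 0.965), overlapped widely. Leaving out stimulated wildtype replicate A gave a call for Il10ra, and leaving out replicate B one for Il13ra1.

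**Figure D5:**
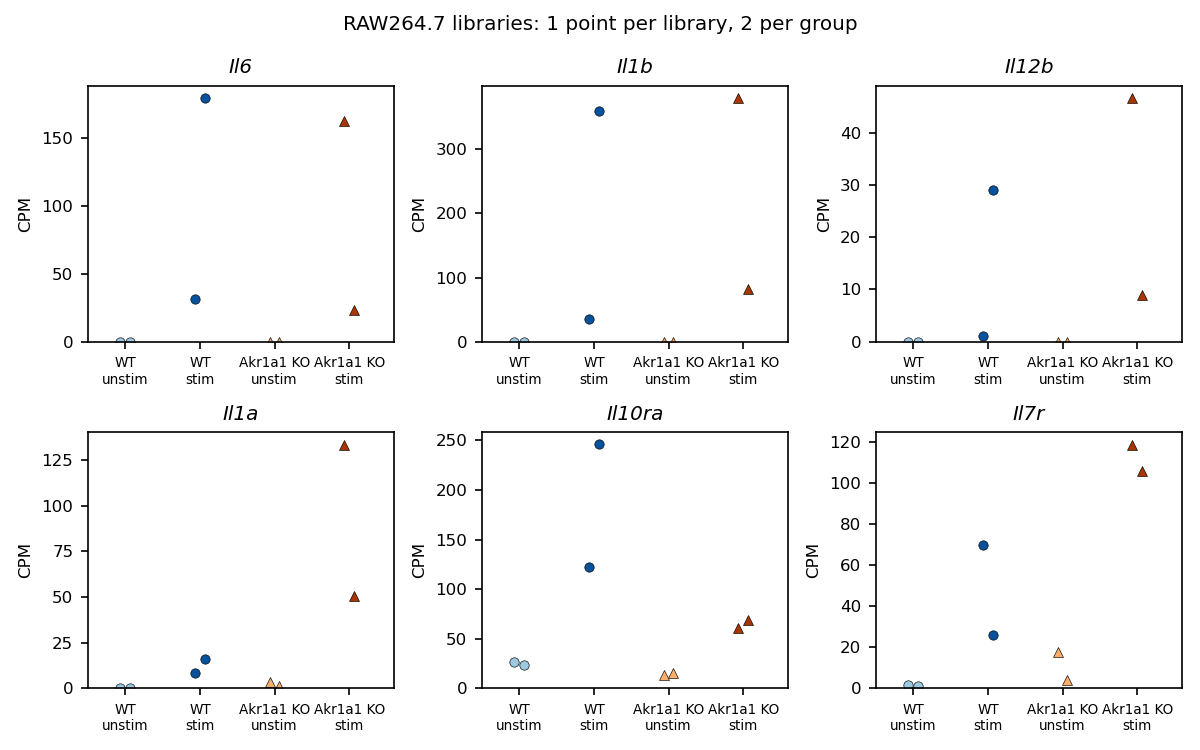
CPM of Il6, Il1b, Il12b, Il1a, Il10ra and Il7r in each of the 8 RAW264.7 libraries, by group, with 2 points per group. Il6 and Il1b rise in both genotypes with replicates several-fold apart. Il1a and Il10ra show no overlap between stimulated genotypes, as did 25 of the 50 interleukin genes tested, and neither passed the test. The share of all genes without overlap is not given.

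Before stimulation Il7r was at 1.53 and 0.903 CPM in wildtype and 17.4 and 4.17 CPM in Akr1a1 KO (log2 fold change 3.22, SE 0.78, adjusted p = 0.188), and Il1a at 0.0726 and 0.194 CPM in wildtype and 3.53 and 1.04 CPM in Akr1a1 KO (log2 fold change 3.64, SE 0.97, adjusted p = 0.261). Il1rn was at 34.9 and 10.5 CPM in wildtype and 6.83 and 3.79 CPM in Akr1a1 KO (log2 fold change -2.11, SE 0.60, adjusted p = 0.311). These groups did not overlap, as was so for 17 of the 50 interleukin genes tested, a count given without the share of all genes and thus a description. EdgeR called none of the 3, while DESeq2 called Il7r and Il1a, the replicate block Il1rn and Il7r, and the fit without a filter all 3.

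Set side by side, 46 interleukin genes were tested in both experiments on wildtype stimulation. Called higher in both were 22, and lower in both were Il1rl1 and Il4, the latter below 1 CPM. Among all genes 32.4% were called higher in the iNOS experiment and 18.5% in RAW264.7 cells. The share called higher in both is not given, so these counts are a description. Il18rap and Il12rb1 were called in opposite directions, at 0.92 and 2.27 in the iNOS experiment and -2.26 and -1.46 in RAW264.7 cells, where both calls were lost without the libraries of conflicting title. Il10 was called higher in both, by 1.84 in the first and at least 43.5-fold in the second. The tables were normalised separately and the IFNγ dose differed, so no difference between them was tested.

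Genes at or below 1 CPM in every group made up the rest. In the iNOS experiment 17 genes had 0 counts in all 12 libraries, among them the ligands Il3, Il9, Il17a, Il21, Il22 and Il25, known mainly from lymphocytes and epithelia, the IL-12 subunit Il12a and the IL-1 decoy receptor Il1r2. A further 16 had 1 to 9 counts in all. The tested genes that stayed below 1 CPM had highest group means of 0.115 CPM (Il17rb) to 0.637 CPM (Il12b), with Il27ra, the IL-27 binding chain, at most at 0.421 CPM. In RAW264.7 cells 16 had 0 counts in all 8 libraries, and those tested below 1 CPM had highest group means of 0.14 CPM (Il12rb2) to 0.932 CPM (Il4). A count of 0 allows up to 3 counts per library, which is under 1 CPM in each. Il22 and Il22b, and Il11ra1 and Il11ra2, are near-identical copies whose reads the counting could split or drop, so their values are uncertain.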

How the data were processed

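Gene counts were the deposited whole-number counts of reads per gene, 1 table for each experiment; no normalized values were used. The authors sequenced poly A RNA, filtered reads and aligned them with STAR to mm10, per the submitters' processing notes, which also name CASAVA; the counter and the strand setting are not given in the sources used here. Only 1 of the 83 gene starts matched the GRCm38 annotation, so positions are as the table lists them and the build is unsettled.

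Each experiment was fitted apart with edgeR 4.0.16 in R 4.3.3 (quasi-likelihood test, TMM scaling, 1 mean per group, genes with at least 10 counts in total), with Benjamini-Hochberg adjustment over all genes tested and a call at 0.05. SEs of log2 fold changes were derived from the F statistic. CPM used TMM-scaled library sizes. Scripts were tested on simulated data. Bounds used 3 counts per library, and intervals were exact at 95% and cover counting error only. Alternatives were DESeq2 1.42.0 (the tool the authors used), its size factors, other filters, protein-coding genes alone, the compared groups alone, a limit of 1 on the log2 fold change, a replicate block and each library left out.

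The interleukin genes, their roles and the lists were chosen with earlier results of these data known. Per-library statistics are given for Il6, textbook macrophage interleukins and receptors, and up to 3 ligands and 3 receptors with the largest called change in each comparison, where above 1 CPM. Nothing in the labels says that replicate letters pair libraries, and same-letter libraries did not deviate together throughout, so the main fit has no replicate block. Figures were drawn with matplotlib 3.10.9 in Python 3.11.15, and limma was version 3.58.1.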

Additional observations from a re-analysis of the deposited data

Results flagged for a closer look

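In the iNOS experiment the interaction test found that the response to stimulation differed between genotypes for 16 interleukin genes above 1 CPM. Of the 50 tested 20% were called above 0 and 12% below 0, beside 20% and 15.4% of all genes. The interleukin genes thus did not exceed this background. The log2 response was larger, or the fall smaller, in iNOS KO cells for Il27 by 2.95, Il1rl1 by 2.44, Il10 by 1.83, Il18rap by 1.76, Il18 by 1.42, Il10ra by 1.22, Il1a by 1.18, Il13ra2 by 1.12, Il6ra by 0.85 and Il2rg by 0.44. For Il1a and Il13ra2 this call was lost under some alternatives. Both had a deviating value in replicate B of stimulated iNOS KO, but they kept the call without that library. For Il1a the stimulated genotypes did not differ by the test, and the unstimulated difference was a marginal call at levels near 1 CPM. The interaction was below 0 for Il34 at -2.01, Il18bp at -1.88, Il6st at -1.29, Il13ra1 at -1.06, Il15 at -0.93 and Il7r at -0.74. In 1 of these 16 genes, Il6st, wildtype and iNOS KO cells were called in opposite directions.

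Wildtype cells of the 2 experiments were called in opposite directions on stimulation for Il18rap (0.92 in the iNOS experiment and -2.26 in RAW264.7 cells) and Il12rb1 (2.27 and -1.46). The RAW264.7 calls were near the threshold (adjusted p = 0.04 and 0.0488), and both were lost without the libraries of conflicting title. This difference between experiments was not tested, since the tables were normalised separately and the IFNγ dose and depth differed. The labels also name different cells, but the cell type of the iNOS experiment was not settled here.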

How the results depend on the processing

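No value changed direction past the threshold under any alternative. In the iNOS experiment, with a main count of 9, unstimulated genotype calls numbered 14 with only the compared groups fitted and 4 with the limit on the log2 fold change, and stimulated genotype calls fell from 25 to 13 under that limit. In RAW264.7 cells the 28 calls on wildtype stimulation became 15 without the 2 libraries of conflicting title and 17 to 27 with 1 library left out. Genotype calls there, 0 in the main results, were 3 with DESeq2, 8 without a filter and 2 under the replicate block unstimulated, 4 with DESeq2 and 12 without a filter stimulated (0 to 1 with 1 library left out), and 5 without a filter for the interaction. The cause was not tested, and no share of all genes is given for these settings. No label says that replicate letters pair libraries (same-letter correlations -0.383 to 0.379 in the iNOS experiment and -0.115 to 0.434 in RAW264.7 cells). In RAW264.7 cells a letter may name a clone within a genotype, and there unstimulated and stimulated libraries of a letter correlated at 0.434 in wildtype and 0.209 in Akr1a1 KO. The replicate block moved no other count by over 1.5 times, but under it Il21r gained and Il4, Il11 and Il36rn lost the call on stimulation of wildtype RAW264.7 cells. That block gave a letter the same effect in both genotypes. It therefore cannot show how the counts would change with clones paired within a genotype, which was not tested. Leaving out 1 library gave 35 to 40 calls on wildtype stimulation, 32 to 36 in iNOS KO, 7 to 12 and 24 to 26 between unstimulated and stimulated genotypes and 14 to 18 for the interaction in the iNOS experiment, and 21 to 30 on stimulation of Akr1a1 KO cells. Of single-gene values in the iNOS experiment 1695 of those with 1 library left out kept their side of the threshold, 8 gained and 37 lost the call; other settings gave 1076, 15 and 36. In RAW264.7 cells these were 1106, 12 and 42, and 1200, 42 and 20. Genes under about 1 CPM, at 12.7 to 46.5 counts, are limited by depth.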
